A study of Mus musculus with 12 samples.

Results

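Transcripts of 7 genes of the phagocyte NADPH oxidase and its partners were described across 12 polyA RNA libraries of mouse bone marrow neutrophils. The genes were taken by name: Cybb, Cyba, Ncf1 and Ncf4, which encode subunits of the enzyme, Rac1 and Rac2, which encode its GTPases, and Hvcn1, which encodes a proton channel that works beside it. All 7 were found among the 15986 genes of the count tables, and all 7 were among the 10802 genes abundant enough to be tested. The 4 groups were Rab27a knockout neutrophils with CpG-B, Rab27a knockout neutrophils left unstimulated, wild-type neutrophils with CpG-B and wild-type neutrophils left unstimulated, with 3 libraries each, numbered 1, 2 and 3. All animals carry a C57BL/6 strain label. All cells are described as mature neutrophils, taken from marrow on Ly6G beads, and were cultured for 6 h. CpG-B is an unmethylated DNA oligonucleotide that is a ligand of the endosomal receptor TLR9, and it was used at 5 µM. The unstimulated cells are called vehicle in some labels and untreated in others, and the Rab27a allele, the sex and the number of animals are not stated. Nothing in the labels says that libraries of a group came from separate animals, so the p-values measure the spread between these libraries.

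The phagocyte NADPH oxidase passes electrons from cytosolic NADPH across a membrane to oxygen and so makes superoxide, the first product of the neutrophil oxidative burst. Its catalytic core lies in the membranes of granules, phagosomes and the cell surface as a pair of proteins, encoded by Cybb and Cyba, and it works only after cytosolic subunits and GTP-bound Rac have joined it. Inherited loss of a subunit gene causes chronic granulomatous disease. Rab27a, the gene that the knockout label names, encodes a GTPase of granule docking and secretion.

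Promoter windows for 3 of the 7 genes (Cybb, Cyba and Ncf1) were present in the RefSeq table used, on mouse build GRCm38.p6, and all 3 are shown. These 3 genes rose with CpG in knockout neutrophils, as did Ncf4 and Hvcn1, for which no window was present. Each window holds the 250 bases before the listed start, read on the minus strand of the chromosome and printed 5′ to 3′. Capitals mark matches on either strand to 3 short motifs, an NF-kB site (GGGA, any 4 bases, then CC), an ISRE-like site (GAAA, any 2 bases, then GAAA) and a GAS-like site (TTC, any 3 bases, then GAA). The Cybb window is chrX:9469325-9469574, the Cyba window is chr8:122432941-122433190 and the Ncf1 window is chr5:134229626-134229875.
Cybb: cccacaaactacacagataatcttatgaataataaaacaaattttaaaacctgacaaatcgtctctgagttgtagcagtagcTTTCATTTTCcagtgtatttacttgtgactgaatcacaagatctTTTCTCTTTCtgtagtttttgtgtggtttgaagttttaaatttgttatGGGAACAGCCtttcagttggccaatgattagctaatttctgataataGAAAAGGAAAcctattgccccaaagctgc
Cyba: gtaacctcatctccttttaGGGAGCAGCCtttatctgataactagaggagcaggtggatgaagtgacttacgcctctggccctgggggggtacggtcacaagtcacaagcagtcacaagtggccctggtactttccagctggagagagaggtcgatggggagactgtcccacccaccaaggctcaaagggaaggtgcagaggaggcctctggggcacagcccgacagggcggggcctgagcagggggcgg
Ncf1: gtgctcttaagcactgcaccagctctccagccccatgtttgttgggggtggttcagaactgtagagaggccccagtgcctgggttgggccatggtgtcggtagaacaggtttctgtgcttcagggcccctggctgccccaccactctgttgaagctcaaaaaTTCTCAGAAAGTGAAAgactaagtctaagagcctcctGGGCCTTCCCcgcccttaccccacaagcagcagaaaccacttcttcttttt
The Cybb window held 3 ISRE-like matches, which ended 159, 115 and 20 bases before the start, and 1 NF-kB match that ended 67 bases before it. In the Ncf1 window, 1 ISRE-like match ended 73 bases before the start and overlapped the GAS-like match, and 1 NF-kB match ended 42 bases before the start. The Cyba window held 1 NF-kB match, which ended 222 bases before the start. Of 32851 mouse windows of this length, 17.6% held an NF-kB match, 2.98% an ISRE-like match and 7.02% a GAS-like match. The ETS-type motif GAGGAA, present in 23.3% of windows, was in none of the 3, and shorter ETS motifs were not searched for. These are matches of letters, not measured sites. The Cybb window lies inside the annotated span of the gene, so Cybb has an annotated start farther upstream that the window does not cover. Which Cybb transcript begins at the start used here was not settled.

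Library totals ran between 10928813 and 15513279 estimated counts. Rab27a itself had 114, 113 and 96.1 CPM (counts scaled to library size with TMM factors) in knockout libraries with CpG and 129, 116 and 94.9 CPM in unstimulated knockout libraries, against 207, 216 and 285 CPM in wild-type libraries with CpG and 231, 251 and 335 CPM in unstimulated wild-type libraries. Every knockout library lay below every wild-type library. Rab27a stood at 0.455-fold of wild-type with CpG and at 0.416-fold unstimulated, so its transcripts were lower in knockout but not absent. All 14 neutrophil markers, Ly6g among them, were present in each group. The neutrophil markers summed to between 71306 and 105765 CPM in knockout libraries with CpG, 98011 and 102582 CPM in unstimulated knockout, 94728 and 105731 CPM in wild-type with CpG and 103664 and 111900 CPM in unstimulated wild-type libraries. The lowest of these sums came from knockout library 2 with CpG, which was also the most deeply sequenced. All 8 markers of neutrophil precursors were present in each group too. They summed to 586 to 1188 CPM in knockout with CpG and 571 to 1314 CPM in unstimulated knockout libraries. In wild-type libraries the sums were 758 to 813 CPM with CpG and 768 to 890 CPM unstimulated. Mki67, a marker of cycling cells, averaged 479, 487, 450 and 473 CPM in these 4 groups. None of the 8 passed in any comparison.

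Compared per transcript length, in the authors' TPM, the membrane subunit gene Cyba and the organiser gene Ncf1 stood highest of the 7 and the proton channel gene Hvcn1 lowest in all 4 groups. Cyba averaged 2140 ± 519.2 TPM in knockout neutrophils with CpG, 1331 ± 50.1 TPM in unstimulated knockout, 1716 ± 151.1 TPM in wild-type with CpG and 1337 ± 72.95 TPM in unstimulated wild-type neutrophils (SD, n = 3 each), which placed it 40th, 61st, 47th and 63rd among all genes. Ncf1 averaged 1417, 1072, 1373 and 1202 TPM in the same 4 groups. Knockout library 2 with CpG, at 2729 TPM, set much of the spread of Cyba, while the other knockout libraries with CpG held 1943 and 1749 TPM. This library stood apart in TPM but not in CPM, where it held 856, beside 829 in library 1 and 642 in library 3.

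With CpG, in both genotypes, the order of mean levels was Cyba, Ncf1, Ncf4, Rac2, Cybb, Rac1 and Hvcn1. Without CpG, in both genotypes, Rac2 stood above Ncf4. Rac2 held 640.1 ± 59.25 TPM in unstimulated knockout and 650.5 ± 51.27 TPM in unstimulated wild-type neutrophils, where Ncf4 held 548.3 ± 20.21 and 546.2 ± 19.26 TPM. Neighbours in these orders did not overlap between libraries, with one exception: in unstimulated wild-type neutrophils Cyba (1258 to 1401 TPM) and Ncf1 (1088 to 1346 TPM) could not be separated. Cybb, which encodes the catalytic subunit, averaged 503.8 ± 19.02 TPM in knockout with CpG, 244.7 ± 23.35 TPM in unstimulated knockout, 341 ± 36.72 TPM in wild-type with CpG and 221.6 ± 22.91 TPM in unstimulated wild-type neutrophils. Transcripts of Cyba, its membrane partner, therefore exceeded those of Cybb by a ratio of TPM that averaged 4.23 in knockout with CpG, 5.47 in unstimulated knockout, 5.05 in wild-type with CpG and 6.09 in unstimulated wild-type neutrophils. In knockout with CpG that ratio was 4.0, 5.21 and 3.48 in libraries 1, 2 and 3, the highest in the library that stood apart in TPM of Cyba. Hvcn1 averaged 64.7 TPM in knockout with CpG, 42.18 TPM in unstimulated knockout, 73.79 TPM in wild-type with CpG and 46.66 TPM in unstimulated wild-type neutrophils.

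**Figure D1:**
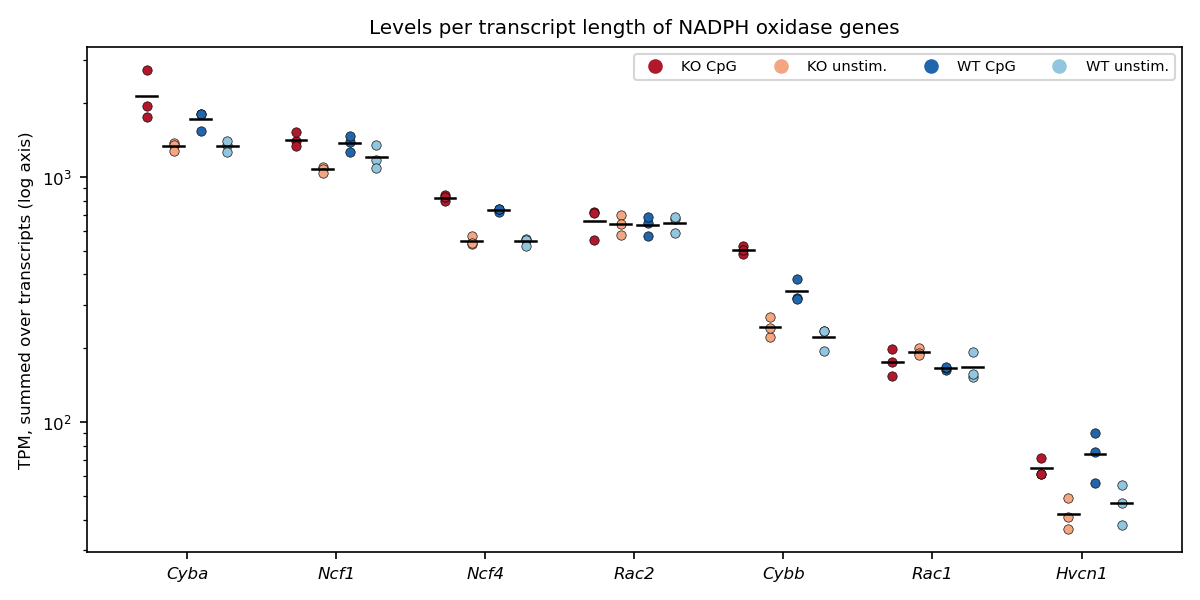
Levels per transcript length (TPM summed over the transcripts of a gene, log axis) of the 7 genes, with 1 point for each library and a bar at the mean of each group (n = 3). Cyba and Ncf1 lie highest in all 4 groups and Hvcn1 lowest, and Rac2 changes place with Ncf4 between the CpG and the unstimulated groups.

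CpG raised several of the oxidase genes. In knockout neutrophils 5 of the 7 genes rose with CpG (Cybb, Cyba, Ncf1, Ncf4 and Hvcn1), where 7.57% of all 10802 genes tested rose. In wild-type neutrophils 3 of the 7 rose (Cybb, Ncf4 and Hvcn1), where 4.74% of all genes rose. The wild-type count was 0 without unstimulated library 1 or without CpG library 2 and 0 on curated transcripts alone, and 4 with the replicate number as a block. None of the 7 fell, where 4.06% of all genes fell in knockout and 1.3% in wild-type neutrophils, and neither Rac gene passed the test. The median log2 fold change of the 7 genes was 0.68 in knockout and 0.38 in wild-type neutrophils, beside -0.01 over all genes in each. The 7 genes were chosen with earlier results of these data known, so these counts and medians are a description and no test of the genes as a set. A gene is said to have risen or fallen where its p-value in the edgeR quasi-likelihood test, adjusted by Benjamini-Hochberg over all genes tested, was at most 0.05. In bulk RNA of this kind, fewer cells of a type and less RNA per cell cannot be told apart. Each genotype has its own unstimulated libraries, so the CpG comparisons share no library.

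**Figure D2:**
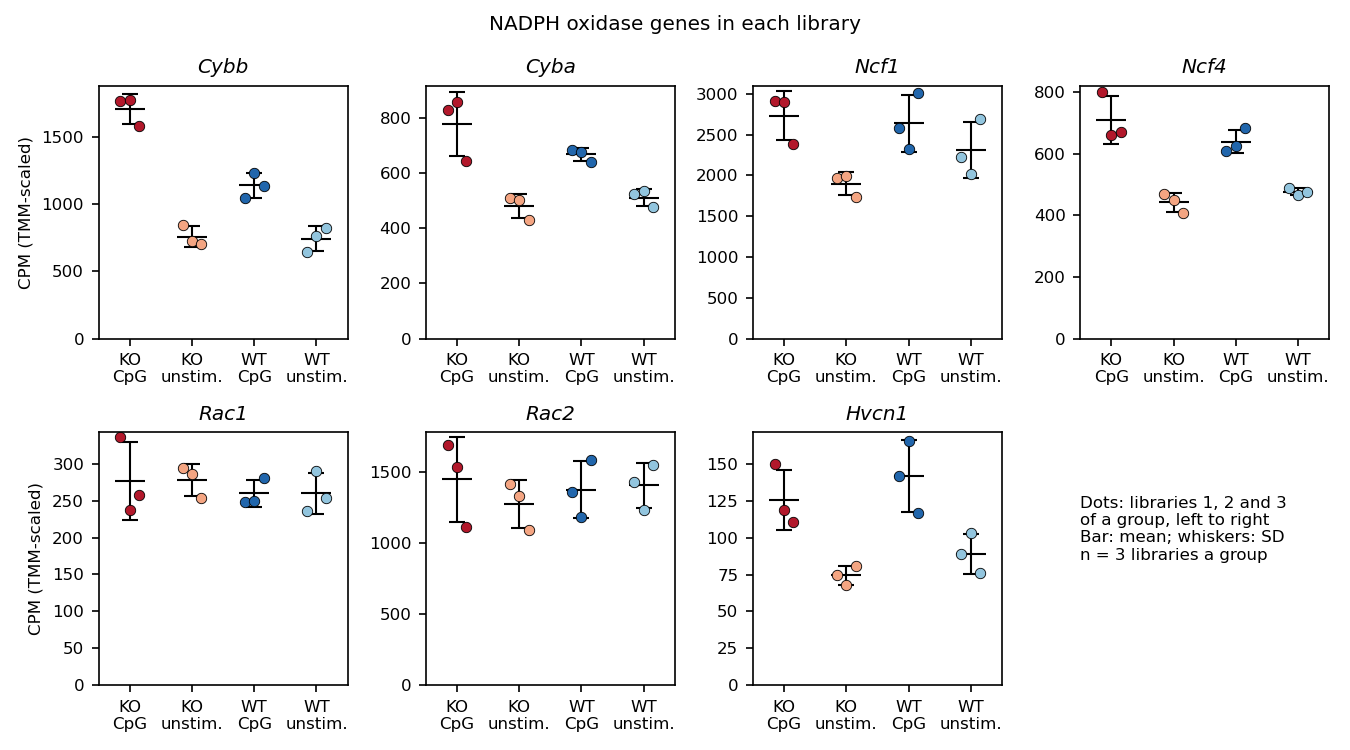
CPM scaled by TMM (linear axes that start at 0) of each of the 7 genes in the 12 libraries, with the mean (bar) and SD (whiskers) of 3 libraries a group. The Cybb points of knockout libraries with CpG, at 1582 to 1783 CPM, lie above all other libraries, while the groups of Rac1 and of Rac2 overlap throughout.

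Cybb encodes the flavin- and haem-bearing subunit that moves the electrons, and of the 7 genes it had the largest change with CpG in knockout neutrophils. In libraries numbered 1, 2 and 3, Cybb had 1772, 1783 and 1582 CPM in knockout neutrophils with CpG, against 849, 725 and 705 CPM in unstimulated knockout neutrophils. It had 1050, 1238 and 1141 CPM in wild-type neutrophils with CpG, against 648, 765 and 826 CPM in unstimulated wild-type neutrophils. In both genotypes every CpG library lay above every unstimulated library, and the 3 knockout libraries with CpG lay above the 3 wild-type libraries with CpG. Cybb was 2.25-fold higher with CpG in knockout neutrophils (95% interval 1.86 to 2.73, edgeR adjusted p = 3.3e-05). In wild-type neutrophils it was 1.53-fold higher (95% interval 1.27 to 1.85, edgeR adjusted p = 0.00947). The call in wild-type neutrophils was lost without unstimulated library 1 (adjusted p = 0.0557) and without CpG library 2 (adjusted p = 0.0508), at log2 fold changes of 0.51 and 0.53 by edgeR.

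Cyba, which encodes the small membrane subunit that holds the catalytic one stable, had 829, 856 and 642 CPM in knockout neutrophils with CpG, against 508, 502 and 430 CPM in unstimulated knockout neutrophils. In wild-type neutrophils it had 683, 677 and 641 CPM with CpG, against 523, 535 and 477 CPM unstimulated. The CpG and unstimulated libraries did not overlap in either genotype, and those of knockout and wild-type with CpG did. Cyba rose 1.62-fold in knockout neutrophils (log2 0.69 ± 0.12 SE, edgeR adjusted p = 0.00208). In wild-type neutrophils the value was 1.3-fold (log2 0.38 ± 0.12 SE, 95% interval 0.12 to 0.65) and did not pass the test, with an edgeR adjusted p of 0.101. Wild-type libraries of the same number deviated together, and with the number kept as a block within each genotype the same log2 value of 0.38 passed at an edgeR adjusted p of 0.00179. That blocked fit called 1824 genes in the wild-type comparison, against 652 without the block. The ratio of CpG to unstimulated CPM of Cyba in wild-type libraries of the same number was 1.31, 1.27 and 1.34.

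The cytosolic subunits differed in how far they moved. Ncf1 encodes the organiser subunit, whose phosphorylation opens it to bind the membrane pair. It had 2905, 2904 and 2388 CPM in knockout neutrophils with CpG, against 1973, 1990 and 1733 CPM in unstimulated knockout neutrophils, and these libraries did not overlap. In wild-type neutrophils it had 2575, 2319 and 3014 CPM with CpG, against 2224, 2018 and 2692 CPM unstimulated, and these libraries did overlap. Ncf1 rose 1.44-fold in knockout neutrophils (log2 0.52 ± 0.15 SE, edgeR adjusted p = 0.0341), a call that was lost in 6 of 12 edgeR fits that each left out 1 library (highest adjusted p = 0.141). In wild-type neutrophils the log2 value was 0.19 (95% interval -0.13 to 0.51, edgeR adjusted p = 0.645). Although wild-type libraries overlapped, each with CpG stood above the unstimulated one of its number, at ratios of 1.16, 1.15 and 1.12.

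Ncf4 encodes a subunit that binds a phosphoinositide of phagosome membranes. It had 800, 661 and 670 CPM in knockout neutrophils with CpG, against 469, 451 and 407 CPM in unstimulated knockout neutrophils. It had 610, 626 and 682 CPM in wild-type neutrophils with CpG, against 487, 467 and 476 CPM in unstimulated wild-type neutrophils. No CpG library overlapped an unstimulated one in either genotype. Ncf4 rose 1.61-fold in knockout (log2 0.68 ± 0.11 SE, edgeR adjusted p = 0.000829) and 1.34-fold in wild-type neutrophils (log2 0.42 ± 0.11 SE, edgeR adjusted p = 0.0345). The wild-type call was lost in 7 of 12 fits that left out 1 library each, the 6 wild-type libraries and unstimulated knockout library 2, with edgeR adjusted p up to 0.115.

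The Rac genes, whose GTP-bound products switch the assembled enzyme on, did not pass the test in any comparison. Rac2, the main Rac of neutrophils, had 1692, 1537 and 1117 CPM in knockout with CpG, 1418, 1329 and 1090 CPM in unstimulated knockout, 1363, 1183 and 1588 CPM in wild-type with CpG and 1433, 1237 and 1552 CPM in unstimulated wild-type neutrophils. All 4 groups overlapped. The log2 value of Rac2 with CpG was 0.18 in knockout (95% interval -0.19 to 0.55) and -0.03 in wild-type neutrophils (95% interval -0.4 to 0.34). Rac1, which most cell types express, had 337, 237 and 258 CPM in knockout with CpG, 295, 286 and 254 CPM in unstimulated knockout, 248, 250 and 281 CPM in wild-type with CpG and 236, 291 and 254 CPM in unstimulated wild-type neutrophils. Its log2 value was -0.01 in knockout and -0.00 in wild-type neutrophils, with a 95% interval of -0.3 to 0.29 in each, and the change of Cybb in either genotype lay above these intervals. Per transcript length, Rac2 exceeded Rac1 by a TPM ratio of 3.8 ± 0.76 in knockout with CpG, 3.32 ± 0.192 in unstimulated knockout, 3.83 ± 0.355 in wild-type with CpG and 3.96 ± 0.762 in unstimulated wild-type neutrophils (SD, n = 3 each). The transcripts of Rac1 and Rac2 shared no stretch of 50 bases.

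Hvcn1, the voltage-gated proton channel that lets protons follow the electrons and so keeps the oxidase running, rose in both genotypes. It had 150, 119 and 111 CPM in knockout neutrophils with CpG, against 74.8, 67.8 and 80.9 CPM in unstimulated knockout neutrophils. It had 142, 166 and 117 CPM in wild-type neutrophils with CpG, against 88.9, 103 and 75.9 CPM in unstimulated wild-type neutrophils. The CpG libraries lay above the unstimulated ones in each genotype, and those of the 2 genotypes overlapped. The rise was 1.7-fold in knockout (log2 0.76 ± 0.16 SE, edgeR adjusted p = 0.00535) and 1.59-fold in wild-type neutrophils (log2 0.67 ± 0.16 SE, edgeR adjusted p = 0.0199). In wild-type neutrophils the call was lost without unstimulated library 1 or 3 or CpG library 1 or 2, with edgeR adjusted p between 0.0589 and 0.13.

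Groups without overlap were common among all genes. With CpG, 5 of the 7 genes were higher in every knockout library than in every unstimulated knockout library, where 12.7% of all genes tested were. In wild-type neutrophils 4 of the 7 were (Cyba as well as the 3 that passed the test), where 14.5% of all genes were. Some markers of monocytes and macrophages were higher with CpG as well. All 13 of that list were present in every group, and their summed level was 1525 to 1646 CPM in knockout with CpG, 717 to 884 CPM in unstimulated knockout, 1442 to 1462 CPM in wild-type with CpG and 952 to 976 CPM in unstimulated wild-type neutrophils. Of the 13 markers, 3 rose with CpG in knockout (Csf1r, Adgre1 and Vcam1) and 2 in wild-type neutrophils (Csf1r and Adgre1), and none fell. Csf1r made up most of the sum with CpG in knockout, at 812 ± 86.3 CPM, against 173 ± 25.1 CPM in unstimulated knockout, and it had 554 ± 41.9 CPM in wild-type with CpG, against 200 ± 12.7 CPM in unstimulated wild-type neutrophils. Ccr2 and F13a1, which did not pass, had lower means with CpG. Ccr2 averaged 8.63 CPM in knockout with CpG, against 15.4 CPM unstimulated, and 4.36 CPM in wild-type with CpG, against 10.1 CPM unstimulated. F13a1 averaged 20.7 CPM in knockout with CpG, against 39 CPM unstimulated, and 18.8 CPM in wild-type with CpG, against 30.7 CPM unstimulated. Monocytes and macrophages express the same oxidase genes, and the part of such cells in the changes of the oxidase genes was not tested.

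**Figure D3:**
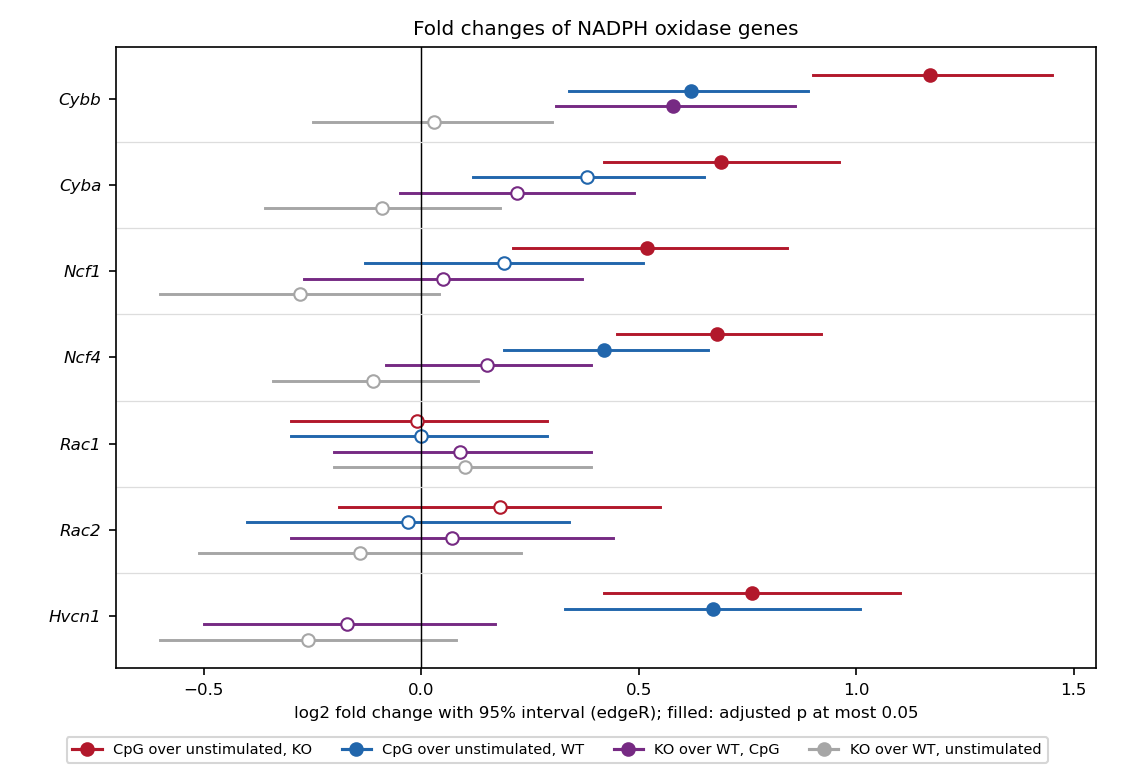
Log2 fold changes of the 7 genes with 95% intervals in 4 comparisons, from edgeR fitted to 12 libraries. Filled points passed at an adjusted p of at most 0.05. With CpG over unstimulated, 5 genes are filled in knockout and 3 in wild-type neutrophils. Between genotypes only Cybb with CpG is filled, at 0.58.

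Between the genotypes, Cybb with CpG was the one oxidase gene to pass the test. Its 1772, 1783 and 1582 CPM in knockout neutrophils with CpG, set against 1050, 1238 and 1141 CPM in wild-type neutrophils with CpG, made it 1.5-fold higher (95% interval 1.24 to 1.81, log2 0.58 ± 0.13 SE, edgeR adjusted p = 0.0189). It was 1 of 7, where 3.92% of all genes passed and 1.7% were higher in knockout with CpG. Of the 7 genes it was also the only one whose libraries with CpG did not overlap between genotypes, where 10.3% of all genes stood higher without overlap. The call was lost without wild-type CpG library 1 (log2 0.52, adjusted p = 0.146), in a fit of the 6 libraries with CpG alone (log2 0.58, adjusted p = 0.078) and on curated transcripts alone (log2 0.42, adjusted p = 0.497), all by edgeR.

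For the other oxidase genes with CpG, the log2 values of knockout over wild-type were 0.22 for Cyba, 0.15 for Ncf4, 0.09 for Rac1, 0.07 for Rac2, 0.05 for Ncf1 and -0.17 for Hvcn1, and none passed. Library size scaling turned the sign of Ncf1 (-0.02) and of Rac2 (-0.01). In unstimulated neutrophils none of the 7 passed, where 4.75% of all genes tested did. Cybb had a log2 value of 0.03 there (95% interval -0.25 to 0.3, edgeR adjusted p = 0.954). Ncf1 was lower in each unstimulated knockout library (1733 to 1990 CPM) than in each unstimulated wild-type library (2018 to 2692 CPM), at a log2 value of -0.28 with a 95% interval of -0.6 to 0.04 and an edgeR adjusted p of 0.356. It was 1 of 7 without overlap in this direction, where 13% of all genes were.

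Some single markers of other cells differed between genotypes as well. With CpG, 1 of the 13 monocyte and macrophage markers was higher in knockout, Csf1r at a log2 value of 0.63 (edgeR adjusted p = 0.00986). The other 12 did not pass, and the median log2 value of the 13 was -0.01. Means of those 12 lay on both sides. Cd68 averaged 126 CPM in knockout with CpG, against 162 CPM in wild-type with CpG, and Mrc1 3.65 against 11.5 CPM. Adgre1 averaged 132 against 121 CPM in the same groups. The 8 markers of T and NK cells summed to 75.4 to 139 CPM in knockout with CpG and 135 to 156 CPM in unstimulated knockout, against 7.88 to 8.96 CPM in wild-type with CpG and 6.64 to 10.6 CPM in unstimulated wild-type libraries. Cd3d made up most of these sums in knockout, at 103 ± 32.3 CPM with CpG and 140 ± 11.3 CPM unstimulated. In wild-type neutrophils Cd3d averaged 3.98 CPM with CpG and 4.7 CPM unstimulated, and Cd3e averaged at most 0.2 CPM in any group. Of the 4 T and NK markers tested, Cd3d alone differed between genotypes, with a log2 value of 4.77 with CpG (edgeR adjusted p = 5.86e-07). Erythroid markers varied within the knockout, at 469 to 6286 CPM in knockout with CpG and 422 to 6509 CPM in unstimulated knockout, against 4324 to 5215 CPM in wild-type with CpG and 3919 to 5325 CPM in unstimulated wild-type libraries. Of the 7 erythroid markers tested, Hbb-bt alone passed between genotypes, at 3.02 ± 3.64 CPM in knockout with CpG, against 371 ± 51 CPM in wild-type with CpG (log2 -6.95, edgeR adjusted p = 1.12e-05), and at 2.12 ± 2.44 CPM in unstimulated knockout, against 396 ± 82 CPM in unstimulated wild-type neutrophils (log2 -7.56, edgeR adjusted p = 7.17e-06). The part of any of these in the Cybb difference was not tested.

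Whether CpG moved a gene further in knockout than in wild-type neutrophils was tested by the interaction of genotype and CpG, which 0 of 10802 genes passed (0.0%) in edgeR. At an unadjusted p of at most 0.05 it found 365 genes (3.38%), and Cybb was the 1 member among them. The interaction of Cybb was 0.56 on the log2 scale (95% interval 0.17 to 0.94, unadjusted p = 0.00814, edgeR adjusted p = 0.9999). With the number kept as a block within each genotype its edgeR adjusted p was 0.0757, and 13 genes passed. DESeq2 called 3 genes, and no member. The interaction values of the other members were 0.34 for Ncf1, 0.31 for Cyba, 0.26 for Ncf4, 0.21 for Rac2, 0.09 for Hvcn1 and -0.00 for Rac1. The larger count of members called in knockout neutrophils is thus not shown to be a difference between genotypes.

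The balance between subunit transcripts also differed between groups. The TPM ratio of Ncf1 to Cybb was 2.87, 2.91 and 2.65 in knockout with CpG, against 4.07, 4.84 and 4.31 in unstimulated knockout libraries, without overlap. It was 4.3, 3.3 and 4.63 in wild-type with CpG, against 6.01, 4.63 and 5.74 in unstimulated wild-type libraries, where one library of each group met at 4.63. All 3 knockout libraries with CpG lay below all others. The ratio of Ncf1 to Ncf4, both of cytosolic subunits, moved less, with means of 1.73 in knockout with CpG, 1.96 in unstimulated knockout, 1.88 in wild-type with CpG and 2.21 in unstimulated wild-type neutrophils. These ratios are given as a description.

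Several of the genes were counted over more than 1 RefSeq transcript. For Cybb, the predicted transcript XM_006527565 held 79.53% of the estimated counts in knockout with CpG, 77.61% in unstimulated knockout, 76.97% in wild-type with CpG and 81.01% in unstimulated wild-type neutrophils, and the curated transcript NM_007807 held the rest. Both had higher mean levels with CpG than without it in each genotype. NM_007807 averaged 98.97 TPM in knockout with CpG, 52.35 TPM in unstimulated knockout, 76.84 TPM in wild-type with CpG and 40.6 TPM in unstimulated wild-type neutrophils. A fit on curated transcripts alone thus rested on the smaller part of the Cybb counts. In that fit Cybb with CpG in wild-type neutrophils had a log2 value of 0.89 ± 0.27 SE, against 0.62 ± 0.13 SE over both transcripts, and an edgeR adjusted p of 0.104.

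The transcripts of Hvcn1 differed in how their levels stood with CpG. NM_001042489 averaged 41.46 TPM in knockout with CpG, against 20.31 TPM in unstimulated knockout neutrophils, and 50.23 TPM in wild-type with CpG, against 22.86 TPM in unstimulated wild-type neutrophils. Its libraries with CpG (41.15 to 41.65 TPM in knockout, 42.64 to 58.16 TPM in wild-type) lay above all unstimulated ones (15.41 to 23.68 TPM in knockout, 16.93 to 28.64 TPM in wild-type). NM_028752 averaged 14.7 TPM in knockout with CpG, against 12.49 TPM in unstimulated knockout neutrophils, and 13.89 TPM in wild-type with CpG, against 17.8 TPM in unstimulated wild-type neutrophils. The share of Hvcn1 counts held by NM_001042489 was 65.48% in knockout with CpG, 50.68% in unstimulated knockout, 69.87% in wild-type with CpG and 49.79% in unstimulated wild-type neutrophils. Among unstimulated knockout libraries that share ran between 32.57% and 61.0%, so in knockout neutrophils the shares overlapped (59.39% to 68.7% with CpG), while in wild-type neutrophils they did not. These shares are the authors' estimates of how reads divide among overlapping transcripts and were not tested.

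**Figure D4:**
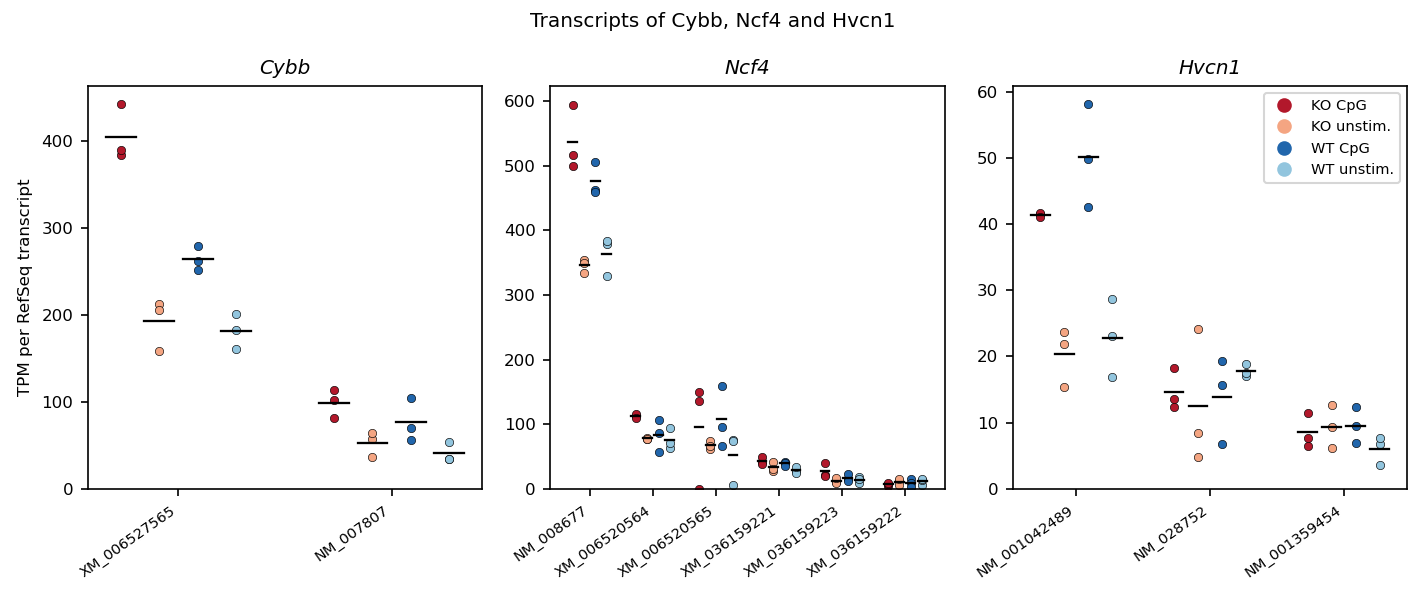
TPM of RefSeq transcripts of Cybb, Ncf4 and Hvcn1 in the 12 libraries (linear axes, 1 point for each library, bars at group means). Transcripts with a mean below 1 TPM are not drawn, which leaves out XM_006530472 of Hvcn1. The Cybb transcript XM_006527565 exceeds NM_007807 in every library, and the Hvcn1 transcript NM_001042489 is the one whose CpG libraries stand clear of the unstimulated ones.

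The curated transcript NM_008677 held most of the 6 Ncf4 transcripts' counts, at a mean of 69.79% in knockout with CpG, 67.41% in unstimulated knockout, 69.24% in wild-type with CpG and 70.73% in unstimulated wild-type neutrophils. The estimate of the Ncf4 transcript XM_006520565 was 0.0 TPM in knockout library 2 with CpG, beside 150.47 and 136.3 TPM in the others of that group. Cyba was counted almost wholly on NM_007806 (96.41% to 98.56% over libraries) and Rac1 on NM_009007 (99.17% to 100%). Rac2 had 1 transcript. Of the 50-base stretches in annotated transcripts, 2.39% of those of Cyba, 0.484% of those of Rac2 and 0.189% of those of Ncf1 also occurred in transcripts of other genes, and 0.0% of those of Cybb, Ncf4, Rac1 and Hvcn1 did.

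The catalytic core of Cybb has relatives in the NOX and DUOX families, which other tissues use. Of 10 such genes and their partners listed, 5 were in the files (Nox1, Noxo1, Noxa1, Duoxa1 and Rac3). None reached the level needed for testing, with at most 12 counts in any library, that of Noxo1. A list of 3 other genes of the phagocyte enzyme, which holds Cybc1, the chaperone of the membrane pair, and Rap1a, a small GTPase found with it, gave 0 calls in each of the 5 comparisons.

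Genes that act around the oxidase were counted by role, from lists chosen with earlier results of these data known. Of 14 tested transcription factors known to act on Cybb or the Ncf genes, 5 rose and 1 fell with CpG in knockout, and 5 rose and 0 fell in wild-type neutrophils, with median log2 values of 0.09 and 0.26. Over all genes tested, 7.57% rose and 4.06% fell with CpG in knockout, and 4.74% rose and 1.3% fell in wild-type neutrophils, which is the background for the counts of each role. Nfkb1, an NF-kB subunit gene, averaged 352 ± 36.1 CPM in knockout with CpG, against 175 ± 5.66 CPM in unstimulated knockout neutrophils (log2 1.01, edgeR adjusted p = 2.86e-05). In wild-type neutrophils it averaged 281 ± 13 CPM with CpG, against 167 ± 18.1 CPM unstimulated (log2 0.75, edgeR adjusted p = 0.000654). Irf1, an interferon regulatory factor, rose by log2 1.55 in knockout (edgeR adjusted p = 9.84e-05) and by 0.68 in wild-type neutrophils (edgeR adjusted p = 0.0482, lost in 8 of 12 fits that left out 1 library each, highest 0.18). Rel, another NF-kB subunit gene, rose by log2 0.66 in knockout (edgeR adjusted p = 0.00204) and by 0.65 in wild-type neutrophils (edgeR adjusted p = 0.00404). None of the 14 differed between genotypes, with or without CpG, by the test.

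Of 29 tested kinases and lipases that act before oxidase assembly, 7 rose and 1 fell with CpG in knockout, and 2 rose and 0 fell in wild-type neutrophils, with median log2 values of 0.01 and -0.01, where 7.57% and 4.74% of all genes rose. Mapk14, which encodes the p38 kinase, rose by log2 1.03 in knockout (edgeR adjusted p = 0.00109) and 0.73 in wild-type neutrophils (edgeR adjusted p = 0.0196, lost in 4 of 12 fits that left out 1 library each, highest 0.0829). Fgr, a Src-family kinase of phagocytes, rose by log2 0.88 in knockout neutrophils (edgeR adjusted p = 0.00178). Between genotypes, 2 of the 29 passed with CpG and 1 unstimulated, where 3.92% and 4.75% of all genes did. Pak1, a kinase that Rac activates, was higher in knockout than in wild-type neutrophils both with CpG (108 ± 7.84 against 53.6 ± 13.5 CPM, edgeR adjusted p = 0.00202) and unstimulated (168 ± 15.3 against 72.3 ± 8.76 CPM, edgeR adjusted p = 0.000351).

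Among 16 tested exchange factors that load Rac with GTP, 3 rose and 2 fell with CpG in knockout, and 1 rose and 0 fell in wild-type neutrophils, with median log2 values of -0.07 and -0.08. The 1 of 16 in wild-type neutrophils is near the 4.74% of all genes that rose there, while 7.57% rose and 4.06% fell in knockout neutrophils. Dock5 rose by log2 1.15 in knockout (edgeR adjusted p = 0.000525) and by 0.63 in wild-type neutrophils (edgeR adjusted p = 0.0446, lost in 7 of 12 fits that left out 1 library each, highest 0.155). Swap70 rose by log2 0.97 in knockout (edgeR adjusted p = 0.017, lost in 3 of 12 such fits, highest 0.0783), and Arhgef6 fell by 0.53 (edgeR adjusted p = 0.00535). Of 11 tested Rac GTPase-activating proteins and dissociation inhibitors, 0 rose with CpG, 2 fell in knockout and 1 fell in wild-type neutrophils, with medians of -0.09 and -0.08, where 4.06% and 1.3% of all genes fell. Bcr, one of these GTPase-activating proteins, fell by log2 0.91 in knockout (edgeR adjusted p = 0.00109) and by 0.7 in wild-type neutrophils (edgeR adjusted p = 0.0115). Arhgap25 fell by log2 0.62 in knockout neutrophils (edgeR adjusted p = 0.0294, lost in 4 of 12 such fits, highest 0.113). Of these 11, 1 passed between genotypes with CpG and 1 unstimulated, where 3.92% and 4.75% of all genes did. Abr, a relative of Bcr, was lower in knockout than in wild-type neutrophils, by log2 -0.64 with CpG (edgeR adjusted p = 0.00485) and by -0.47 unstimulated (edgeR adjusted p = 0.0339, lost in 7 of 12 such fits, highest 0.166).

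The enzyme's substrate, NADPH, comes mainly from the pentose phosphate pathway and a few other enzymes. Of 11 such genes tested, 1 rose and 0 fell with CpG in each genotype, with median log2 values of -0.03 in knockout and 0.01 in wild-type neutrophils. With 7.57% and 4.74% of all genes rising, 1 of 11 is near the background. The gene was Nadk, whose product makes NADP from NAD. It averaged 2468 ± 340 CPM in knockout with CpG, against 967 ± 125 CPM in unstimulated knockout neutrophils (log2 1.35, edgeR adjusted p = 8.06e-05). In wild-type neutrophils it averaged 2022 ± 205 CPM with CpG, against 1038 ± 185 CPM unstimulated (log2 0.96, edgeR adjusted p = 0.00222). Between genotypes, 1 of the 11 passed with CpG and 1 unstimulated, where 3.92% and 4.75% of all genes did. Idh1, an NADP-dependent isocitrate dehydrogenase, was lower in knockout than in wild-type neutrophils with CpG (log2 -0.69, edgeR adjusted p = 0.0422, lost in 9 of 12 fits that left out 1 library each, highest 0.2) and unstimulated (log2 -0.76, edgeR adjusted p = 0.0213, lost in 5 of 12 such fits, highest 0.101).

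Patterns most like those of Cybb, Ncf4 and Hvcn1 over the 12 libraries were ranked by the root mean square difference of log2 CPM centred on each gene's mean, among 5279 genes of at least 20 CPM. The nearest to Cybb were H2-K1 at 0.088, Abcc5 at 0.118 and Cflar at 0.12, where the median gene stood at 0.54. The nearest to Ncf4 were Mtmr6 at 0.08, Pan2 at 0.085 and Sla at 0.096, with a median of 0.35. Those nearest to Hvcn1 were Mrgpra2a at 0.126, Rab32 at 0.16 and Ccdc71l at 0.161, with a median of 0.46. H2-K1 and Mrgpra2a belong to families with near-identical copies, so their counts are uncertain. Among the oxidase genes, Cyba ranked 16th nearest to Ncf4, 30th nearest to Hvcn1 and 144th nearest to Cybb, while Rac1 ranked 1584th, 1992nd and 2044th for the same genes. All points share the same libraries, and the ranking is a description.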

How the data were processed

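PolyA RNA of 12 libraries was sequenced on an Illumina HiSeq instrument, per the labels. For each library the authors deposited expected counts and TPM by RefSeq transcript. RSEM 1.2.28, Bowtie2 and build GRCm39 are named in the submitters' processing notes, and strandedness is not stated. TPM, which the authors scaled for length and to a fixed total, were summed over the transcripts of a gene and used to compare levels between genes.

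The estimated counts of 54716 transcripts (24908 curated, 29808 predicted) were summed to 15986 genes by NCBI gene ID and rounded to whole numbers. Of these genes 15883 matched a symbol in a RefSeq table of the earlier build GRCm38.p6, which was used for names and for promoter sequences. filterByExpr (smallest count 10, smallest total 15) left 10802 genes. TMM factors ran between 0.9 and 1.09. In edgeR 4.0.16 (R 4.3.3, limma 3.58.1), a quasi-likelihood model with 1 mean per group was fitted to the 12 libraries, with 8 residual degrees of freedom and a common dispersion of 0.0293, a coefficient of variation of 17.1%. The comparisons were the effect of CpG in knockout and in wild-type neutrophils, the effect of the knockout with and without CpG, and the interaction. Adjusted p-values of at most 0.05 passed. The procedure was tested on simulated data. DESeq2 1.42.0, other scalings and filters, curated transcripts, limma on log2(TPM + 1), a fit of the compared libraries alone and fits without single libraries were alternatives.

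Libraries of the same number correlated in their deviations from group means at r = 0.279, 0.408 and 0.437 in wild-type and 0.619, 0.085 and 0.678 in knockout neutrophils, all above 0.1 in wild-type alone, and at -0.14 to 0.0311 across genotypes. Numbers were therefore taken to pair wild-type libraries, but the main fit held no block and its p-values leave this pairing out. The alternative fit with the number as a block within each genotype paired the knockout libraries as well.

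No pair of libraries in a group matched within sampling noise. The 7 genes and all gene lists were chosen with earlier results of these data known. Genes named from the lists were the 3 with the lowest adjusted p among those that passed in each comparison, and Rab27a was named as the check of the labels. Marker genes were named where they passed, and some that did not pass or were not tested were named beside them. Not every subunit gene of the enzyme, and not every gene that this rule names, is reported here. Intervals reflect counting and the spread of libraries within groups, which the fit pooled over the 4 groups of 3 libraries. The quasi-likelihood fit also draws the spread of each gene towards that of other genes. Standard errors in edgeR were worked out from the log2 value and the F statistic of the test.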

Additional observations from a re-analysis of the deposited data

How the results depend on the processing

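Cybb, Cyba, Ncf4 and Hvcn1 rose with CpG in knockout neutrophils in each of the 12 fits that left out 1 library. The count of the 7 oxidase genes that rose with CpG was 3 in wild-type neutrophils, with a range of 0 to 4 over those fits (0 without unstimulated wild-type library 1 or wild-type CpG library 2), and 5 in knockout neutrophils, with a range of 4 to 5. Between genotypes the count was 1 with CpG (range 0 to 1, and 0 without wild-type CpG library 1), 0 unstimulated (range 0 to 0) and 0 for the interaction (range 0 to 0). On curated transcripts alone the count was 0 for CpG in wild-type neutrophils and 0 for knockout with CpG, and for knockout with CpG it was also 0 in a fit of the compared libraries alone. Leaving out both libraries of a number in one genotype was added after seeing the data. The count for CpG in wild-type neutrophils was then 0, 0 and 1 without wild-type numbers 1, 2 and 3, and that for CpG in knockout neutrophils was 3 without knockout number 1 or 2. For knockout with CpG it was 0 without wild-type number 1 or 2 or knockout number 2, and 2 without knockout number 3. The causes were not tested.

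Changes of sign were limited to log2 values near 0. Without a number, these were Rac1 with CpG in wild-type (0.11 without number 2) and in knockout neutrophils (0.12 without number 2), and Cybb in unstimulated knockout over wild-type (-0.04 without number 1 of either genotype). With CpG, knockout over wild-type, they were Ncf1 (-0.04) and Rac2 (-0.03) without wild-type number 2, Rac1 (-0.04) and Rac2 (-0.03) without knockout number 1, and, by library size scaling, Ncf1 (-0.02) and Rac2 (-0.01). The interaction of Rac1 was 0.0 by RLE scaling and by DESeq2, 0.08 without wild-type number 3 and 0.12 without knockout number 2. The interaction of Hvcn1 was -0.03 by limma on TPM and -0.05 without knockout number 1. By limma on TPM, Ncf4 in unstimulated knockout over wild-type was 0.01.

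Leaving out 1 library gave log2 ranges across 0 with CpG for Rac1 in wild-type (-0.08 to 0.06) and knockout (-0.17 to 0.09) and Rac2 in wild-type neutrophils (-0.16 to 0.05). For unstimulated knockout over wild-type they were -0.06 to 0.12 for Cybb and -0.14 to 0.01 for Cyba, with CpG -0.07 to 0.22 for Rac1, -0.06 to 0.25 for Rac2 and 0.0 to 0.18 for Ncf1, and for the interaction -0.17 to 0.11 for Rac1 and -0.05 to 0.24 for Hvcn1.

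The replicate block by number called 4 oxidase genes with CpG in wild-type and 5 in knockout neutrophils, and the block by number within each genotype also 4 and 5. Apart from Cyba in wild-type neutrophils (adjusted p = 0.034 and 0.00179 in these blocked edgeR fits) the blocks changed no call of an oxidase gene. Cyba there also passed by library size scaling (0.037), by DESeq2 (0.0296), in a fit of the compared libraries alone (0.0341) and without knockout CpG library 3 (0.0298). Without a filter on low counts, edgeR adjusted p rose to 0.0796 for Ncf4 in wild-type and 0.0582 for Ncf1 in knockout neutrophils.

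Genes called over the whole table were 652 for CpG in wild-type (1824 with the block within genotype, 425 on curated transcripts, 425 to 758 without 1 library, 312, 264 and 387 without wild-type numbers 1, 2 and 3), 1257 for CpG in knockout (2591 with that block, 818 to 1347 without 1 library, 600 without knockout number 2), 513 for unstimulated knockout over wild-type (782 by DESeq2, 283 on curated transcripts, 278 to 604 without 1 library, 264 and 324 without wild-type numbers 1 and 3, 341 and 300 without knockout numbers 1 and 2) and 423 for knockout over wild-type with CpG (734 by DESeq2, 253 in the compared libraries alone, 227 on curated transcripts, 234 to 699 without 1 library, 208 without wild-type number 1, 250 and 824 without knockout numbers 2 and 3). With 3 libraries a group, standard errors of 0.11 to 0.17 on the log2 scale, interaction aside, limited which changes of the oxidase genes could be called.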
